A study of Mus musculus with 10 samples.

Results

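The 29 genes described here encode enzymes that make cholesterol, proteins that sense it, and proteins that move it within the cell or carry it out. They were chosen by name, as a list of the synthesis enzymes, their regulators and the transport genes, with earlier results of these data known. Of the 29, 27 had a probe set that the platform annotation gives a single gene symbol, among 18193 genes named in this way. Each gene was read from 1 probe set, the one with the highest mean log2 intensity over the 10 arrays. All 27 were among the 13644 genes bright enough to be tested. Acat2, a cytosolic thiolase, and Soat1, which makes cholesterol esters, were not analysed here.

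The cells were 3T3-L1, a mouse fibroblast line able to form fat cells after hormonal induction and used here as uninduced preadipocytes, which the labels place at day 0. They received 60 nM of siRNA with the reagent Metafectene Pro: either siLsd1, directed against LSD1, the histone demethylase encoded by Kdm1a, or siC, a scrambled control. RNA was taken 24 h later from passage 19 cells (2 siC and 2 siLsd1 arrays) and 48 h later from passage 21 cells (3 siC and 3 siLsd1 arrays), and every dish kept the medium it was transfected in. Time, passage and the age of the medium therefore differ together between 24 h and 48 h and cannot be told apart. The labels call the replicates biological, all cells are of 1 line, and no untransfected cells are among the samples analysed here. In bulk RNA, fewer cells of a type and less RNA per cell cannot be told apart.

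Cells build cholesterol from acetyl units through mevalonate, isoprenoid pyrophosphates, squalene and lanosterol. The genes of these steps share an activator, the transcription factor SREBP2, encoded by Srebf2. When sterols in the endoplasmic reticulum are low, Scap escorts the SREBP2 precursor to the Golgi, where it is cut and freed to enter the nucleus. When sterols are plentiful, Insig1 and Insig2 hold Scap back, and oxidised sterols activate the nuclear receptors called LXR, which raise export genes such as Abca1 and Abcg1. In preadipocytes the same steps supply membrane for growth, and they stay active in fat cells, which store much of their cholesterol unesterified.

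The median intensity of an array lay between 35.6 and 40.6. Kdm1a, the target of the siRNA, was measured first. At 24 h its intensity was 1559 and 1621 in siC cells, with 1001 and 971 after siLsd1. At 48 h it was 1596, 1787 and 1775 in siC cells, with 1352, 1336 and 897 after siLsd1, so it was lower in every siLsd1 array and part of its mRNA remained. The log2 changes were −0.69 and −0.55 (adjusted p = 0.0473 and 0.0338), with calls at both times lost without any 1 of the 4 arrays at 24 h or the 3 siC arrays at 48 h (adjusted p = 0.0562 to 0.252), and −0.62, adjusted p = 0.00481 over the mean of the times. Another probe set of Kdm1a, with a mean intensity of 481, changed by −0.83 at 24 h and −0.65 at 48 h (adjusted p = 0.00991 and 0.00906). Replicate 3 of siLsd1 at 48 h stood apart. Over 6943 bright genes, the SD of its log2 difference from its own 2 replicates was 0.441 and 0.439, against 0.0892 to 0.205 for every other pair within a group, and 0.361 and 0.353 from the 2 siLsd1 arrays at 24 h. Over the sterol genes alone it was 0.509 and 0.460 from its replicates and 0.773 and 0.887 from the siLsd1 arrays at 24 h. Whether the array carries the right label was not tested. Results that rest on it are given with and without it. Preadipocyte markers (7 of 8 with a probe set) summed to 46140 to 47695 intensity units in siC and 42390 to 42848 in siLsd1 cells at 24 h, and to 47876 to 49104 and 35830 to 45491 at 48 h. The adipocyte list (6 of 8 with a probe set, 3 of them tested, most of the sum from Fabp4) summed to 3613 to 3704 in siC and 1437 to 1729 in siLsd1 cells at 24 h, and to 4706 to 5449.6 and 1488 to 3131 at 48 h. Leukocyte markers (5 of 6 tested, the defining Ptprc too dim) summed to 592 to 609 in siC and 658 to 748 in siLsd1 cells at 24 h, and to 639.7 to 678 and 683 to 747 at 48 h. Muscle markers (2 of 4 tested, Myog and Actn2 too dim) summed to 128 to 129 and 143 to 156 at 24 h, and to 117 to 131 and 141 to 155 at 48 h. Des was called higher with siLsd1 at 48 h (0.50, adjusted p = 0.0458) and over the mean of the times (0.44, adjusted p = 0.0205). Myod1 changed by −0.03 at 24 h and −0.02 at 48 h. Thy1 of the preadipocyte list was called lower at 24 h and 48 h (−0.83 at each, adjusted p = 0.0112 and 0.00412). Fabp4 was too (−1.28 and −1.16, adjusted p = 0.0358 and 0.0183). No tested leukocyte marker was called at 24 h or 48 h, and Itgam leaned down at 24 h (−0.75, adjusted p = 0.325). Lep, Cidec and Retn were too dim to test, as were Pecam1 and Cdh5 of endothelium and Epcam, Cdh1 and Krt18 of epithelium, and the sums of these last lists, at most 151 and 73.6, overlapped between siC and siLsd1 at each time.

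**Figure D1:**
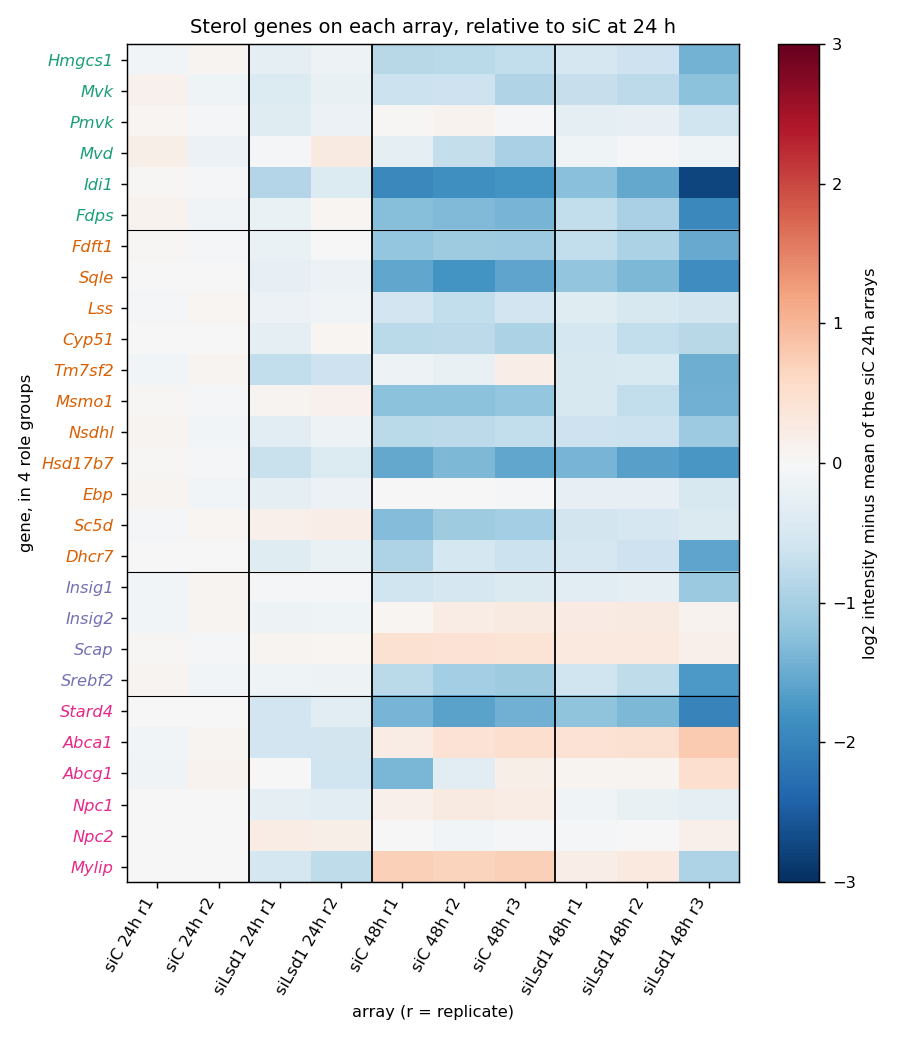
Log2 intensity of each of the 27 genes on each of the 10 arrays, minus the mean of the 2 siC arrays at 24 h (colour scale from −3 to 3), with genes grouped by role. Most synthesis enzymes are blue on all 48 h arrays, the deepest blues are on replicate 3 of siLsd1 at 48 h, and the export and uptake genes at the bottom do not follow the enzymes.

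The first comparison asks how the genes differed between the 2 times in control cells. At 48 h most of the synthesis pathway was lower than at 24 h: 15 of the 27 genes fell, against 12.2% of all genes tested, and 1 rose, against 12.0%. The median log2 change was −0.70 over the 27 genes and 0.01 over all genes tested. The fall lay in the enzymes, where 13 of 17 fell and none rose, and reached Srebf2 and the sterol carrier Stard4. The export genes Abca1 and Abcg1, the lysosomal genes Npc1 and Npc2, and Mylip did not pass the test in this comparison. A gene is said to have risen or fallen where its Benjamini-Hochberg adjusted p over all genes tested, from limma, was under 0.05.

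**Figure D2:**
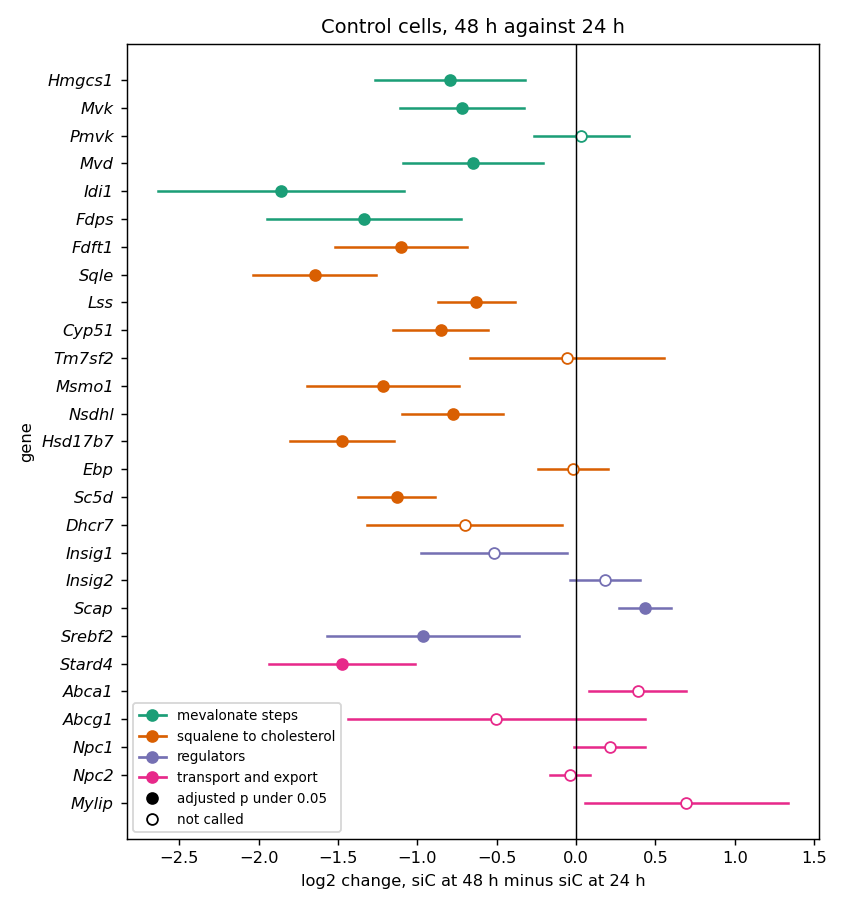
Log2 change of each gene in siC cells, 48 h minus 24 h, with its 95% confidence interval, coloured by role, filled where the adjusted p was under 0.05. Filled points to the left of 0 run from Lss at −0.63 to Idi1 at −1.86, and Scap at 0.43 is the filled point to the right.

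Among the mevalonate steps, 5 of 6 genes fell. Idi1, which interconverts the isoprenoid pyrophosphates, read 615 and 595 at 24 h and 159, 168 and 174 at 48 h in siC cells. The groups did not overlap, and the mean went from 605 ± 14.01 (SD, n = 2) to 167 ± 7.58 (SD, n = 3), a 3.62-fold fall (log2 −1.86, SE 0.35, adjusted p = 0.00444). Fdps, the farnesyl pyrophosphate synthase, read 1860.0 and 1624 at 24 h and 717, 692 and 660.1 at 48 h. All 3 later arrays lay below the 2 earlier ones, a 2.52-fold fall (log2 −1.33, SE 0.27, adjusted p = 0.00694). Hmgcs1, the cytosolic HMG-CoA synthase at the head of the pathway, went from 2268 and 2514 to 1331, 1368 and 1437, with log2 −0.79 (adjusted p = 0.0224). The kinase Mvk went from 198 and 166 to 117, 117 and 97.4, with log2 −0.72 (adjusted p = 0.0148). Mvd, the decarboxylase that forms isopentenyl pyrophosphate, went from 223 and 177 to 166, 120.4 and 102, with log2 −0.65 (adjusted p = 0.0371). Here too the times did not overlap. Pmvk, the kinase between Mvk and Mvd, was the exception, at 173 and 159 and then 171, 178 and 162, with a log2 change of 0.03 and a 95% interval of −0.26 to 0.33.

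Between squalene and cholesterol, 8 of 11 genes fell. Sqle, the squalene epoxidase and a rate-limiting step of this branch, read 894 and 905 at 24 h and 307, 258 and 300.4 at 48 h. Its mean went from 899 ± 7.89 (SD, n = 2) to 288 ± 26.7 (SD, n = 3), a 3.13-fold fall (log2 −1.65, SE 0.17, adjusted p = 0.00019). Hsd17b7, the ketoreductase of sterol demethylation, read 247 and 236 and then 83.8, 95.5 and 81.8, a 2.78-fold fall (log2 −1.48, SE 0.15, adjusted p = 0.000142). These were among the steepest changes of the enzymes, and neither gene's arrays overlapped between the times. The oxidase Msmo1, which acts in the same demethylation as Hsd17b7, went from 1052 and 1009 to 436, 436 and 460.2, with log2 −1.22 (adjusted p = 0.00323). Sc5d, the sterol desaturase near the end of the pathway, went from 450.2 and 482 to 188, 222 and 230.4, with log2 −1.13 (adjusted p = 0.000121). Another bright probe set of Sc5d gave −0.13 (adjusted p = 0.703), and the mean of its probe sets gave −0.53 (adjusted p = 0.126). Fdft1, the squalene synthase, went from 1045 and 1001 to 457, 491 and 481, with log2 −1.10 (adjusted p = 0.00258). For Msmo1, Sc5d and Fdft1 the probe set used read lower on all 3 later arrays.

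Smaller falls were found for Cyp51, the lanosterol demethylase (log2 −0.85, adjusted p = 0.00175), for Nsdhl, the sterol dehydrogenase that works with Msmo1 and Hsd17b7 (log2 −0.78, adjusted p = 0.00402), and for Lss, the lanosterol synthase (log2 −0.63, adjusted p = 0.00294). The other 3 enzymes of this branch did not pass the test, and for Ebp and Tm7sf2 the change was near 0. Ebp, the sterol isomerase, read 901 and 794 at 24 h and 836, 854 and 811 at 48 h, with a log2 change of −0.02 and a 95% interval of −0.24 to 0.20. The sterol reductase Tm7sf2 read 169 and 193 and 162, 155 and 209, with a log2 change of −0.06 and an interval of −0.67 to 0.55. Dhcr7, the last reductase, read 225 and 232 and 119, 158 and 147, without overlap, with a log2 change of −0.70 and an adjusted p of 0.0912.

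Among the regulators, Srebf2 fell and Scap rose. Srebf2, whose product drives the enzyme genes and its own gene, read 509 and 449.7 at 24 h and 273, 235 and 229 at 48 h, a 1.95-fold fall (log2 −0.97, SE 0.27, adjusted p = 0.0274). Another probe set of Srebf2, with a mean intensity of 178, changed by −0.13 (adjusted p = 0.682), and the mean of both by −0.55 (adjusted p = 0.0889). Scap, the escort of the SREBP2 precursor, read 1544 and 1474 and then 2074, 2047 and 1996, a 1.35-fold rise (log2 0.43, SE 0.073, adjusted p = 0.00242). The arrays of the 2 times did not overlap for either gene in the probe set used. Insig1, which is itself a target of SREBP2, read 991 and 1094 and then 687, 730.2 and 771, without overlap but above the threshold (log2 −0.52, adjusted p = 0.0988). Insig2, which does not depend on SREBP2 in the same way, read 563 and 627 and 619, 695 and 715, with overlapping arrays (log2 0.18, adjusted p = 0.215). Its other probe sets, with mean intensities of 439 and 309, changed by 0.38 and 0.32 and passed the threshold (adjusted p = 0.0484 and 0.0247).

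Of the transport genes, Stard4, a cytosolic sterol carrier and SREBP2 target, was called. It read 714 and 691 at 24 h and 269, 232 and 258 at 48 h, a 2.78-fold fall (log2 −1.47, SE 0.21, adjusted p = 0.000907). The changes of the export genes were smaller or the arrays scattered more. Abca1, which loads cholesterol onto apolipoprotein A-I and is an LXR target, read 301 and 339 and then 371, 434 and 454 (log2 0.39, adjusted p = 0.0648). Mylip, the ubiquitin ligase also called IDOL that removes lipoprotein receptors and is raised by LXR, read 1526 and 1530.4 and then 2492, 2433 and 2496 (log2 0.69, adjusted p = 0.108). Both read higher on each 48 h array, and the wide interval for Mylip (0.05 to 1.33) comes with a spread shared over all groups, of which the siLsd1 arrays at 48 h were the most scattered. Npc1 and Npc2, which pass cholesterol out of the lysosome, changed by 0.21 and −0.04 on the log2 scale (adjusted p = 0.156 and 0.693). Abcg1, the other exporter, was dim, with 9.70, 20.4 and 28.7 on the siC arrays at 48 h, and its interval of −1.44 to 0.43 gives little information.

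Of the 16 calls between the times, 11 held with each of the 10 arrays left out in turn. Hmgcs1, Mvk, Mvd, Fdps and Srebf2 were lost without 1 or more of the siC arrays, and Mvd also without either siLsd1 array at 24 h. Without replicate 3 of siLsd1 at 48 h, which widens the shared spread, 17 genes fell and 3 rose, against 19.3% and 21.1% of all genes. Each array centred on its median gave 17 falls and 1 rise, with the median of all genes moved by −0.14. With the mean of all probe sets of a gene in place of the brightest, 7 fell and 1 rose, and the median was −0.515. The calls lost were those of Hmgcs1, Mvk, Fdps, Fdft1, Cyp51, Msmo1, Sc5d and Srebf2 (adjusted p = 0.0530 to 0.760). Called genes had 25 other probe sets, of which 5 had the opposite sign, all of them with mean intensities of 5.22 to 32.2 and none called.

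**Figure D3:**
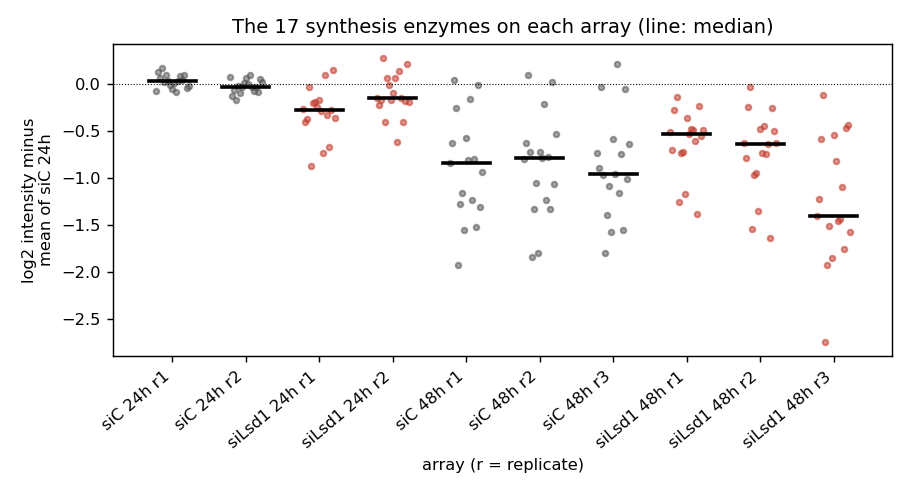
Log2 intensity of each of the 17 synthesis enzymes (points) on each array, minus the mean of the siC arrays at 24 h, with the median as a line. The medians of the siC arrays at 48 h lie between −0.96 and −0.79, those of the siLsd1 arrays at 48 h are −0.53, −0.64 and −1.41, and those of the siLsd1 arrays at 24 h are −0.28 and −0.15.

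Because 15 genes fell together between the times, the promoters were read for motifs known from this pathway. SREBP2 binds sterol regulatory elements, of which TCACNCCAC is a common form, together with the factor NF-Y, which binds CCAAT, and SP1, which binds GGGCGG. The RefSeq table (GRCm38.p6) held promoters of 23 of the 29 genes, running from 250 bases before the annotated start to 50 after it. The 5 windows given next lie directly upstream of the annotated start and end 1 base before it. They were picked to show the gene with a matched sterol element (Hmgcs1), the regulator (Srebf2), the steepest fall (Idi1), the enzyme that was higher with siLsd1 at 48 h (Sc5d), and a gene of uptake control that was not called between the times (Mylip). Capitals mark TCACNCCAC and CCAAT, which reads ATTGG where it lies on the other strand.
Hmgcs1, chr13:119690151-119690350, plus strand: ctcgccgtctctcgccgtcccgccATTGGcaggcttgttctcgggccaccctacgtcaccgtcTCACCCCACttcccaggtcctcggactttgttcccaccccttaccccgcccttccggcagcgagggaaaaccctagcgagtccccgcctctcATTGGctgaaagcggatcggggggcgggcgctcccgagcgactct
Srebf2, chr15:82147069-82147268, plus strand: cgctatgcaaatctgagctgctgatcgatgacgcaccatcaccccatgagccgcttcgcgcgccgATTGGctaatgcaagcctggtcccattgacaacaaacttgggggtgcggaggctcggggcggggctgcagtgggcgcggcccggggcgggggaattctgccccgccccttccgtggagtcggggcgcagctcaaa
Idi1, chr13:8885406-8885605, plus strand: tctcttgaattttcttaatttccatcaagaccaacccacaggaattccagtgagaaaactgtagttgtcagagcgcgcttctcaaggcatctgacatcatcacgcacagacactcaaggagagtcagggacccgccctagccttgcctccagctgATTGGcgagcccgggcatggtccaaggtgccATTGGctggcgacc
Sc5d, chr9:42264301-42264500, minus strand: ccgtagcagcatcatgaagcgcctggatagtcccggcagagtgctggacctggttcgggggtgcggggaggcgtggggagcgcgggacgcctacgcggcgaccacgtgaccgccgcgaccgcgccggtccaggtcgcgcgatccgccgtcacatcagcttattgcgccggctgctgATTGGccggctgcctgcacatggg
Mylip, chr13:45389542-45389741, plus strand: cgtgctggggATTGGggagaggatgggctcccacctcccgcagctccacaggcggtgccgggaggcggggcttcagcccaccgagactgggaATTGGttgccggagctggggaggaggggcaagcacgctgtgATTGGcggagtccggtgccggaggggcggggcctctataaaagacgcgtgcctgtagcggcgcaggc

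All 5 windows hold CCAAT on the other strand, at 45 and 176 bases before the start in Hmgcs1, 135 in Srebf2, 14 and 45 in Idi1, 24 in Sc5d, and 67, 108 and 190 in Mylip. Hmgcs1 alone of the 23 genes has TCACNCCAC, 137 bases before its start. The motifs were searched on both strands. CCAAT was found for 20 of the 23 genes, against 41.1% of the 27025 genes in the table, and in 20 of their 29 annotated promoters, against 37.4% of all 32851. It was found for 11 of the 11 genes with a promoter that fell between the times and for 8 of the 10 measured others, while of the 2 not measured Soat1 has it and Acat2 does not. GGGCGG was found for 22 of the 23 genes, against 38.2% of all genes, and in 25 of the 29 promoters, against 35.7%. TCACNCCAC was in 1.24% of all promoters, and the shorter CACCCCAC, which overlaps it in Hmgcs1, was in those of Hmgcs1 and Acat2 and in 2.87% of all. A match is a run of letters and not a measured binding site, and genes with several annotated starts have more chances of a match.

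With siLsd1 at 24 h, no member passed the test with all arrays in the fit, where 5 of the 27 had an unadjusted p under 0.05 and 5.39% of all genes were called. Most values leaned down: 22 of 27 genes had a negative log2 change, against 7235 of all 13644 genes tested. The median was −0.21 against −0.02 over all genes tested. Of the 17 enzymes, 14 were below both siC arrays on siLsd1 replicate 1 and 11 on replicate 2. Between the siC arrays themselves, replicate 2 read below replicate 1 in 11 of the 17. The share of all genes below both siC arrays is not given here, so these counts are not set against genes at large. The fit shares 1 spread over all groups. Without replicate 3 of siLsd1 at 48 h, an array that is not part of this comparison, 9 genes were called, 8 lower and 1 higher, against 25.5% of all genes. With only the 4 arrays of 24 h in the fit, 7 were called, 6 lower and 1 higher. The share of all genes called in that fit is not given here, so this count is not set against genes at large.

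The genes called at 24 h without that array came from several roles, and the same 9 were called with array weights, which keep it at a low weight. Idi1 read 615 and 595 in siC and 329.8 and 456 in siLsd1 cells, a log2 change of −0.64, with adjusted p = 0.361 with all arrays and 0.00733 without the array. Hsd17b7 read 247 and 236 against 152 and 182, a log2 change of −0.54 (adjusted p = 0.0803 and 0.015). Its other probe sets, with mean intensities of 49.0, 29.6 and 66.3, gave 0.13, −0.11 and −0.19 with all arrays. Tm7sf2 read 169 and 193 against 108 and 118, a log2 change of −0.68 (adjusted p = 0.215 and 0.00579). In these 3 enzyme genes both siLsd1 arrays lay below both siC arrays in the probe set used. Ebp (901 and 794 against 694 and 747) and Stard4 (714 and 691 against 469.6 and 557) were ordered in the same way, with log2 changes of −0.23 and −0.46. Other probe sets of Stard4, with mean intensities of 41.7 and 140, gave −0.06 and −0.18 with all arrays.

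Abca1, Mylip and Npc1 were also lower on both siLsd1 arrays at 24 h. Abca1 read 301 and 339 in siC and 216 and 219 in siLsd1 cells, with a log2 change of −0.56 (adjusted p = 0.0598 with all arrays and 0.00275 without replicate 3 of siLsd1 at 48 h). Mylip read 1526 and 1530.4 against 1067 and 895, with a log2 change of −0.65 (adjusted p = 0.262 and 0.000161). Npc1 read 223 and 229 against 186 and 178, with a log2 change of −0.31 (adjusted p = 0.131 and 0.0287). These genes belong to export, receptor removal and lysosomal exit, not to synthesis. Npc2, the soluble partner of Npc1, read higher in siLsd1 cells, at 9929 and 9645 against 11363 and 11017, with a log2 change of 0.19 (adjusted p = 0.106 and 0.00645). Hmgcs1, Fdps, Fdft1, Cyp51, Lss and Insig1 had changes of −0.21, −0.07, −0.10, −0.12, −0.14 and −0.04, and none was called in either fit.

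**Figure D4:**
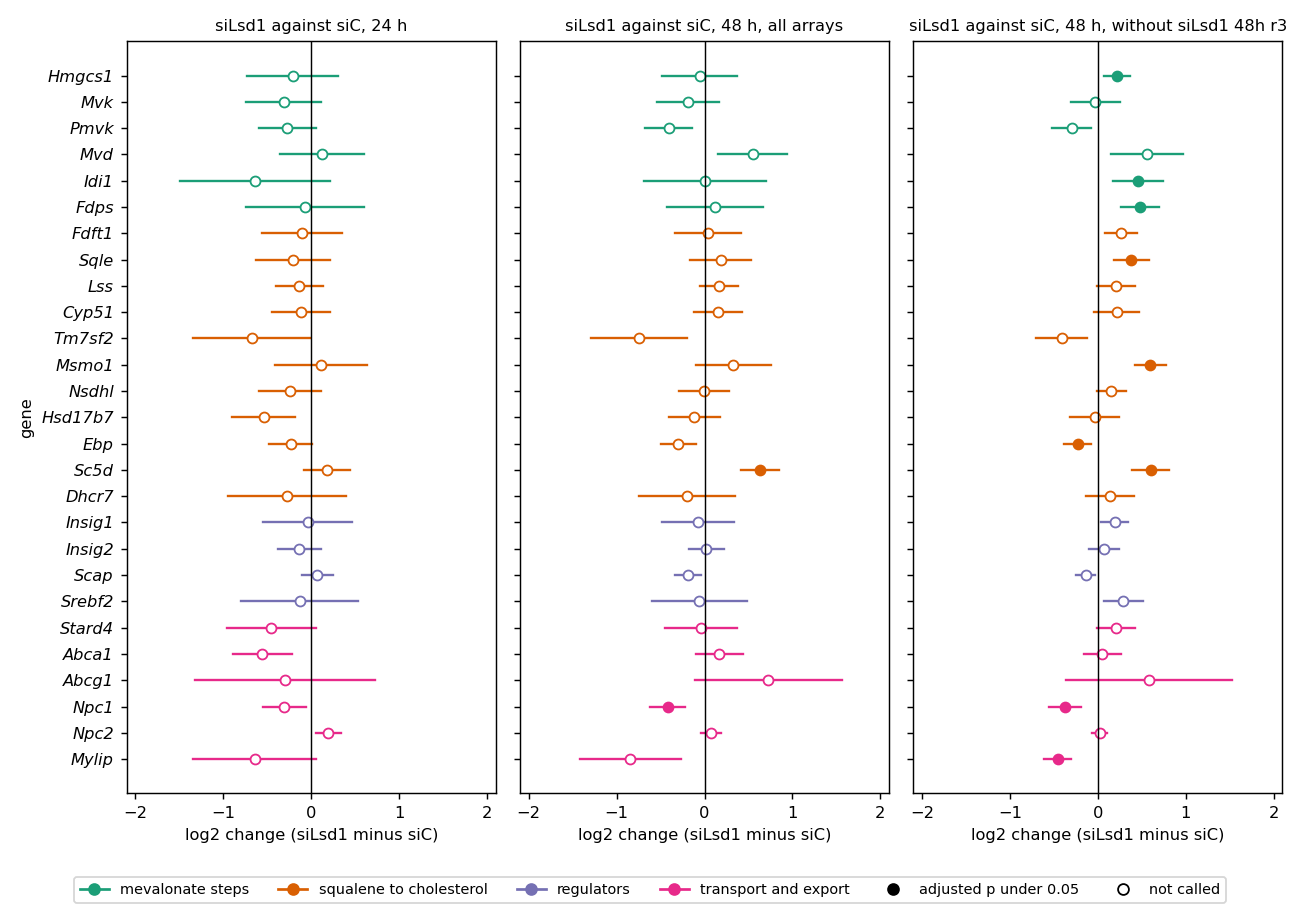
Log2 change of each gene, siLsd1 minus siC, with its 95% confidence interval, at 24 h, at 48 h with all arrays, and at 48 h without replicate 3 of siLsd1, filled where the adjusted p was under 0.05. Sc5d and Npc1 are filled at 48 h in both versions, and 7 further genes are filled in the version without that array.

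At 48 h with all arrays, 1 gene rose with siLsd1 and 1 fell, against 6.00% and 6.67% of all genes, so the share of members called was not above that of genes at large. The median log2 change over the 27 genes was −0.003. Sc5d rose, with 188, 222 and 230.4 on the siC and 316, 329 and 344 on the siLsd1 arrays. All 3 siLsd1 arrays lay above all 3 siC arrays, with means of 329.7 ± 13.7 (SD, n = 3) and 214 ± 22.3 (SD, n = 3), a 1.55-fold difference (log2 0.63, SE 0.097, adjusted p = 0.00572). The call held in all 10 fits that leave out a single array, where the highest adjusted p was 0.0275. It was lost with the mean of the gene's probe sets, where the log2 change was 0.19 (adjusted p = 0.573), and another probe set of Sc5d with a mean intensity of 194 gave −0.21 (adjusted p = 0.483). At 24 h Sc5d read 450.2 and 482 in siC and 517 and 537 in siLsd1 cells (log2 0.18, adjusted p = 0.419).

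Npc1, the membrane protein through which cholesterol leaves the lysosome, fell. It read 251, 273 and 262 in siC and 210.3, 195 and 183 in siLsd1 cells at 48 h, without overlap, with means of 262 ± 11.3 (SD, n = 3) and 196 ± 13.6 (SD, n = 3). The difference was 1.34-fold (log2 −0.42, SE 0.090, adjusted p = 0.0202). The call was lost without siC replicate 2 (adjusted p = 0.0894) or replicate 3 (adjusted p = 0.0632) at 48 h. With only the 6 arrays of 48 h in the fit its adjusted p was 0.0792. Several genes stood just above the threshold with every siLsd1 array on 1 side of the siC arrays: Pmvk at log2 −0.41 (adjusted p = 0.0517), Ebp at −0.30 (adjusted p = 0.0526), Mylip at −0.84 (adjusted p = 0.0567), Mvd at 0.55 (adjusted p = 0.0652), Tm7sf2 at −0.74 (adjusted p = 0.0706) and Scap at −0.19 (adjusted p = 0.0786). Another probe set of Mvd, with a mean intensity of 72.3, went the other way, at −0.14 (adjusted p = 0.615).

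The siLsd1 arrays at 48 h did not share a direction across the enzymes. Replicates 1 and 2 read above every siC array of that time in 12 and 11 of the 17 enzymes, and below every one in 3 and 4. Replicate 3 read above every siC array in 3 and below every one in 13. The share of all genes outside the siC arrays is not given here, so these counts are not set against genes at large. The median of the enzymes against the siC mean of the same time was 0.28, 0.14 and −0.41 (log2) on replicates 1, 2 and 3. Idi1 shows the split, with 159, 168 and 174 on the siC arrays and 253, 208 and 90.04 on the siLsd1 arrays, so that its mean of 184 ± 84.1 (SD, n = 3) describes none of the 3. Hmgcs1 (1678, 1541 and 901 against 1331, 1368 and 1437 in siC), Fdps (1041, 884 and 457 against 717, 692 and 660.1) and Srebf2 (318, 282 and 145 against 273, 235 and 229) were split in the same way, with replicates 1 and 2 above and replicate 3 below the siC arrays.

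Without replicate 3 of siLsd1, 6 genes rose at 48 h and 3 fell, against 8.16% and 9.96% of all genes, and the median of the 27 was 0.19. The 6 were all enzymes, 3 of the mevalonate steps and 3 of the later ones. Msmo1 rose by 0.60 (SE 0.078, adjusted p = 0.00053), from 436, 436 and 460.2 in siC to 734 and 614 in siLsd1 cells. Sc5d rose by 0.60 (adjusted p = 0.00147), Fdps by 0.48 (adjusted p = 0.00677), Idi1 by 0.46 (adjusted p = 0.0341), Sqle by 0.38 (adjusted p = 0.013) and Hmgcs1 by 0.22 (adjusted p = 0.0428). The 3 that fell were Npc1 (−0.37, adjusted p = 0.0109), Mylip (−0.46, adjusted p = 0.00142) and Ebp (−0.23, adjusted p = 0.0455). Replicate 3 also had the lowest Kdm1a of its group, 897, and the part of that difference in these values was not tested.

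**Figure D5:**
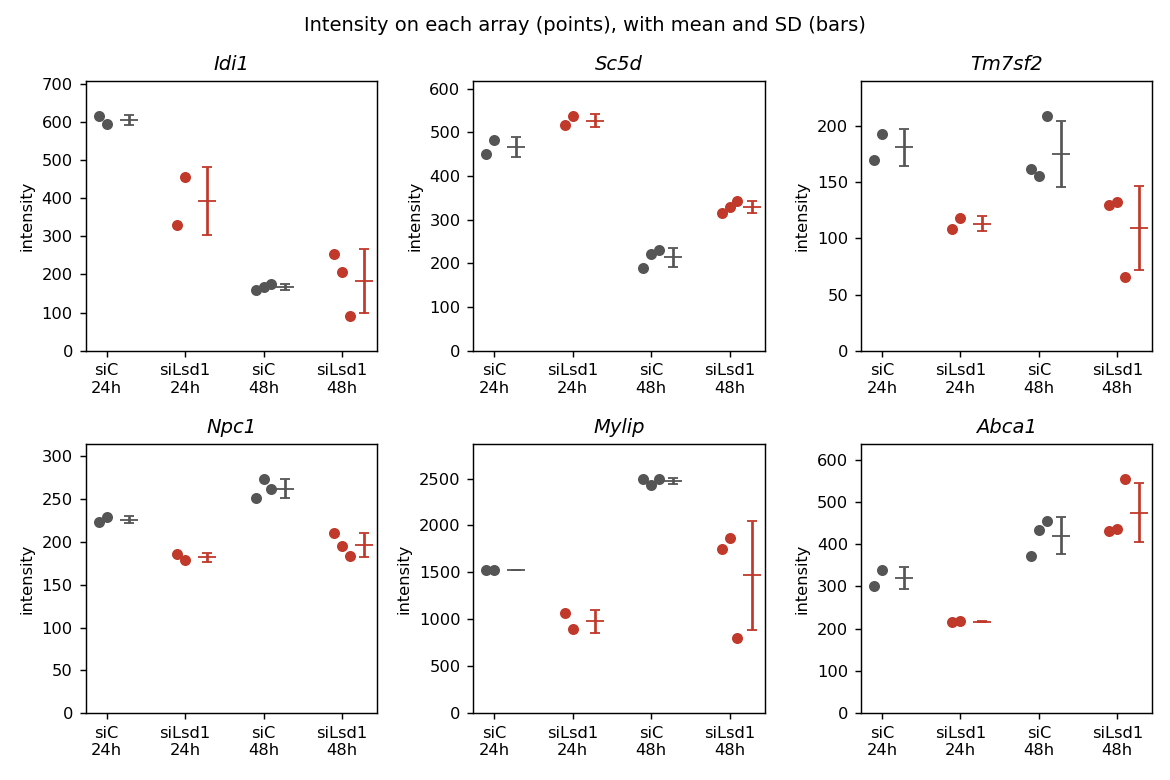
Intensity on each array (points) beside the group mean and SD (bars) for Idi1, Sc5d, Tm7sf2, Npc1, Mylip and Abca1, by group, on linear axes that start at 0. Idi1 and Sc5d drop from 24 h to 48 h in siC cells, Sc5d is higher and Tm7sf2, Npc1 and Mylip are lower on every siLsd1 array than on the siC arrays of the same time, and for Idi1, Tm7sf2 and Mylip 1 siLsd1 array at 48 h lies below its group.

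Averaged over the 2 times, 8 of the 27 genes were called: 2 rose with siLsd1, against 10.1% of all genes, and 6 fell, against 13.7%. The median log2 change was −0.10. Sc5d (0.40, adjusted p = 0.00595) and Npc2 (0.13, adjusted p = 0.0387) rose. Among the genes that fell, Pmvk (−0.34, adjusted p = 0.0284), Tm7sf2 (−0.71, adjusted p = 0.026), Hsd17b7 (−0.33, adjusted p = 0.0439) and Ebp (−0.27, adjusted p = 0.0233) are enzymes, while Npc1 (−0.36, adjusted p = 0.00672) and Mylip (−0.74, adjusted p = 0.026) act on transport and uptake. Pmvk, Ebp and Tm7sf2 are also the enzymes, apart from Dhcr7, that were not called between the times in siC cells. Tm7sf2 read 162, 155 and 209 in siC and 129, 132 and 65.8 in siLsd1 cells at 48 h, so every siLsd1 array lay below every siC array at both times.

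Mylip had the largest fall of these, and it too was lower on every siLsd1 array at both times, with 2492, 2433 and 2496 in siC and 1746, 1862 and 803 in siLsd1 cells at 48 h. Npc1 and Sc5d kept their calls with each array left out in turn, though Sc5d lost its call with the mean of its probe sets (0.12, adjusted p = 0.664), as did Hsd17b7 (−0.18, adjusted p = 0.491) and Npc2 (0.071, adjusted p = 0.623). The other 6 each lost theirs without some array, and 2 to 10 genes were called across the 10 leave-outs, with 2 to 4 left without either siC array at 24 h, either siLsd1 array at 24 h, or siC replicate 2 or 3 at 48 h. Without replicate 3 of siLsd1 at 48 h, 3 genes rose and 7 fell, against 14.5% and 19.3% of all genes. The summed markers of preadipocytes and of adipocytes, the latter mostly Fabp4, were both lower in siLsd1 than in siC cells at both times, and those of leukocytes and muscle both higher, each without overlap. Their part in these differences was not tested.

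The size of the siLsd1 effect was then compared between the times. No member was called for this difference, nor was any of the 13644 genes (0% of all genes), with 896 genes and 3 members at an unadjusted p under 0.05 in limma. The members were Abca1, Sc5d and Scap. Abca1 had the largest of the 3, a log2 difference of 0.73 (SE 0.19, adjusted p = 0.516): it was lower with siLsd1 at 24 h, as given above, and read 371, 434 and 454 in siC and 431, 436 and 554 in siLsd1 cells at 48 h, where the arrays overlapped. Another probe set of Abca1, with a mean intensity of 35.2, gave a difference of 0.19 (adjusted p = 0.98) and a change of −0.38 at 48 h (adjusted p = 0.386). Without replicate 3 of siLsd1 at 48 h, 2 members were called, against 1.47% of all genes. They were Idi1, with a difference of 1.10 (adjusted p = 0.0225), and Stard4, with 0.66 (adjusted p = 0.0488), both lower with siLsd1 at 24 h and higher on replicates 1 and 2 at 48 h. With all arrays, Stard4 gave a difference of 0.42 in the probe set used and 0.13 and −0.16 in its other probe sets.

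Of 32 further genes of sterol sensing, sterol transport and side branches, 27 were bright enough to test. In siC cells between the times 3 rose and 3 fell, shares near those of all genes given above. Tmem97, a sterol-responsive membrane protein, fell by 1.24 on the log2 scale (adjusted p = 0.000862), and Stard5, a sterol-binding protein related to Stard4, fell by 1.25 (adjusted p = 0.00307). Lbr, a nuclear membrane protein with the same sterol reductase activity as Tm7sf2, changed by −0.52 (adjusted p = 0.00637), and Gramd1a, which moves sterol from the plasma membrane, by 0.59 (adjusted p = 0.0107). With siLsd1, Osbpl2, a relative of the oxysterol-binding carrier Osbp, was called at 24 h, at 0.39 (adjusted p = 0.0242). At 48 h Stard5 rose by 0.93, or 1.91-fold (adjusted p = 0.0187), with 123, 136 and 131 in siC and 206, 203 and 363 in siLsd1 cells. Rnf139, an endoplasmic reticulum ubiquitin ligase, and Lbr rose as well (0.47 and 0.36, adjusted p = 0.023 and 0.0363), and Lrpap1, a chaperone of lipoprotein receptors, fell (−0.39, adjusted p = 0.0183). These single calls were narrow. Osbpl2 lost its call without any 1 of the arrays at 24 h or without siC replicate 2 at 48 h (adjusted p = 0.0589 to 0.194). Stard5 and Lrpap1 lost theirs without any 1 of the siC arrays at 48 h (adjusted p = 0.0529 to 0.0792), Rnf139 without siC replicate 1 or 2 at 48 h (0.0542 and 0.0644), and Lbr without any 1 array but siC replicate 3 or siLsd1 replicate 3 at 48 h (0.0522 to 0.127). With the mean of probe sets the 48 h changes of Rnf139 and Stard5 were 0.15 and 0.54 (adjusted p = 0.369 and 0.125). Between the times, Gramd1a lost its call without either siC array at 24 h (adjusted p = 0.0800 and 0.0611) and Lbr without siC replicate 2 at 24 h (0.0734). The same siRNA left Stard4 at a log2 change of −0.04 at 48 h (adjusted p = 0.9). Without replicate 3 of siLsd1 at 48 h, 4 of the further genes rose and 7 fell at 24 h, against 25.5% of all genes called either way, and 4 rose and 3 fell at 48 h, against 8.16% and 9.96%. With all arrays the 1 call at 24 h stands against 5.39% of all genes, and the 3 rises and 1 fall at 48 h against 6.00% and 6.67%.

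Over the mean of both times, 5 of the 27 further genes rose with siLsd1 and 5 fell, against 10.1% and 13.7% of all genes. The 4 with the largest changes were Stard5 (0.82, adjusted p = 0.00585), Lrp1, a lipoprotein receptor (−0.57, adjusted p = 0.0175), Osbp, which exchanges sterols between the endoplasmic reticulum and the Golgi (−0.42, adjusted p = 0.0112), and Rnf139 (0.40, adjusted p = 0.00817). The Lrp1 call was lost without siC replicate 1 (adjusted p = 0.075) or siLsd1 replicate 1 (adjusted p = 0.0877) at 24 h, that of Osbp without siC replicate 1 at 24 h (adjusted p = 0.0537), and that of Rnf139 with the mean of its probe sets (adjusted p = 0.536).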

How the data were processed

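Total RNA from 10 dishes of 3T3-L1 cells was labelled with biotin and hybridised to 10 Affymetrix mouse arrays, 1 per dish, per the labels. The values used are the authors' deposited intensities per probe set, on a linear scale (45037 probe sets, from 0.76 to 15820). Methods of summary and normalization used by the authors are not given in the sources used here. Such steps can shrink the differences of dim probes. Of the probe sets, 34945 had 1 gene symbol in the platform annotation, 932 had several and 9160 had none listed. Probe sets with several or none were left out, including any for Acat2 and Soat1.

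Intensities were converted to log2 with no pseudocount. The probe set with the highest mean stood for its gene, and the dimmest 25% of genes (4549, mean intensity up to 18.4) were left out. In R 4.3.3, limma 3.58.1 fitted 4 group means with lmFit. Its eBayes step used an intensity trend and left 6 residual degrees of freedom. P-values were adjusted by Benjamini-Hochberg over 13644 genes within each of 5 comparisons, with a threshold of 0.05 for a call. All tests were two-sided, and limma's fold changes are of log2 means. The number of arrays, 2 or 3 a group, limits the precision. On simulated data with known changes, the fit recovered 30% of genes changed by 0.5 on the log2 scale at 24 h and 36% at 48 h, and 68% and 74% of those changed by 1. The same fit recovered 54% and 84% over the mean of the times, and 22% and 60% between the times in siC cells.

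Groups came from the sample titles. The members are the list given by name, all of which are described. The further genes are described by counts, with up to 4 called genes of largest fold named per comparison. The members and lists were chosen with earlier results of these data known. Promoter sequences came from the RefSeq table for GRCm38.p6, and Abcg1, Fdft1, Fdps, Npc1, Sqle and Stard4 had no entry there. The alternatives tried were other filters, scalings, probe set rules, pseudocount 16, array weights, blocks and arrays left out. The labels were not used to pair the samples. Deviations of same-numbered siC and siLsd1 arrays correlated at −0.07 at 24 h and at −0.19, 0.05 and −0.06 at 48 h. Arrays matched by the last digit of the sample code correlated at 0.07 at 24 h and at −0.19 and 0.05 at 48 h. With 2 arrays a group at 24 h the deviations mirror each other, so these values cannot decide whether samples were paired. Figures were drawn with matplotlib 3.10.9.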

Additional observations from a re-analysis of the deposited data

Results flagged for a closer look

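In Lss and Scap, every siLsd1 array lay on one side of the siC arrays at 24 h and on the other side at 48 h. Lss, the lanosterol synthase, was lower with siLsd1 at 24 h and higher at 48 h in the probe set used. Its log2 change at 48 h exceeded that at 24 h by 0.30 (unadjusted p = 0.0792, adjusted p = 0.825 in limma). Another probe set of Lss, with a mean intensity of 86.2, was lower at both times (−0.21 and −0.10). A dimmer one, with a mean intensity of 22.6, changed by −0.22 at 24 h and 0.22 at 48 h. Scap, the SREBP2 escort, was higher at 24 h and lower at 48 h, a difference of −0.26 (unadjusted p = 0.0313, adjusted p = 0.694 in limma). The difference between the times was tested and was not called for either gene.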

How the results depend on the processing

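Between the times in siC cells, the count of 16 called sterol genes moved by over 1.5 times only on averaging each gene's probe sets, which called 8 genes with a median of −0.515. Leaving out 1 array gave 11 to 20 genes, and Mvd also lost its call without the intensity trend (adjusted p = 0.0557) and with the replicate block (adjusted p = 0.0699). Except where a share is given beside them, the counts under alternatives, here and above, are of members only. The share of all genes called also moves with the setting. For siLsd1 against siC it was 5.39% at 24 h and 12.7% at 48 h with all arrays. Without replicate 3 of siLsd1 at 48 h it was 25.5% and 18.1%. At 24 h, siLsd1 gave 9 called genes with array weights, 7 with only the arrays compared, 1 with the dimmest 50% of genes left out, 1 with the block by sample code, and 0 to 9 with 1 array left out. At 48 h it gave 16 with array weights, 7 with the block by sample code, 5 with the dimmest 50% left out, 5 with quantile normalization, and 1 with the mean of probe sets, the replicate block or only the arrays compared. Averaging siLsd1 replicates 1 and 2, an alternative chosen after seeing the data, gave 4, and leaving out 1 array gave 1 to 9. The 48 h median, −0.003 with all arrays, was 0.17 with the block by sample code and −0.20 to 0.19 with 1 array left out. Over the mean of both times 5 genes were called with the mean of probe sets, 3 with the replicate block and 2 to 10 with 1 array left out. For the difference between the times, array weights gave 4 genes with a median of 0.38, and leaving out 1 array gave 0 to 2 genes and medians of 0.012 to 0.40. The sign turned with a call for Hmgcs1 at 48 h, to 0.20 with array weights, 0.25 with the block by sample code and 0.22 without replicate 3 of siLsd1 (−0.23 to 0.22 over the arrays left out), and with array weights for Srebf2 (0.30) and Stard4 (0.27). Array weights gave replicate 3 of siLsd1 at 48 h a weight of 0.0948. The block by sample code gives an array without a partner of the same last digit no part in the siLsd1 change. Replicate 3 of siLsd1 at 48 h is such an array, so these settings are not separate checks from leaving it out. At 24 h that block rests on 1 siC and 1 siLsd1 array. Other causes were not tested. Of 2884 comparisons of single genes with an alternative, 86 lost a call, 93 gained one, and 129 uncalled values changed sign. The block by sample code gives no value between the times in siC cells, and a fit on only the arrays compared does not apply to the mean or the difference of the times, which use all arrays. Few arrays and dim probe sets limit what could be seen, as for Abcg1.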
